A study of Mus musculus with 12 samples.

Results

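Dendritic cells (DCs) kept with alloreactive memory T cells (the AlloTem group) were compared with DCs kept with syngeneic ones (the SynTem group), gene by gene over the whole range of expression. It rests on 6 of the 12 sequenced libraries, 3 per group, chosen by the treatment named in their labels. In both groups the DCs were C57BL/6 cells from spleens of mice bearing B16 tumours that secreted Flt3 ligand, which drives DC numbers up. They were enriched by bead removal of lymphocytes and macrophages, cultured for 3 h, and sorted on CD11b and CD11c before RNA extraction. The AlloTem cultures held effector memory T cells specific for alloantigen and derived from BALB/c mice, and the SynTem cultures held effector memory T cells of the DCs' own C57BL/6 strain. The strain of the T cells and their specificity changed together, so the 2 cannot be told apart. DCs with lipopolysaccharide (the LPS group) and DCs alone (the DC only group), 3 libraries each, shared the fit that set the spread between libraries and are given here for their levels. The age and sex of the mice, and whether replicates were separate animals or cultures, are not given in the labels, so the p-values speak of the variation among these libraries alone, part of which may be technical.

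When a memory T cell recognises peptide and MHC on a DC, it signals back to that DC through CD40 ligand and secreted cytokines. CD40 ligation acts through NF-kB and MAP kinases, GM-CSF through STAT5, and IL-4 or IL-13 through STAT6. DCs exposed to these signals are known to change their costimulatory ligands, chemokines, adhesion molecules and transcription factors.

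Total counts were 20055002 to 21861156 in AlloTem libraries and 13903574 to 15982118 in SynTem libraries, and 14413 genes had enough counts to be tested. The 10 DC markers, among them Flt3, Itgax, Zbtb46 and H2-Ab1, were all tested and none was called between the groups. Since 0.167% of all genes tested were called, this says little about the DC markers. Of the 10, 9 had a positive fold change. At an unadjusted p under 0.05, 2 were higher and 0 lower in AlloTem, against 5.68% and 3.91% of all genes tested. Libraries did not part cleanly by group: Spearman correlations of all tested genes were 0.967 to 0.983 within the groups and 0.959 to 0.985 between them. Each library carried a deposited batch number equal to its replicate number, and the meaning of a batch is not given in the sources used here. Transcripts of the sex chromosomes went against that pairing in SynTem 2 and SynTem 3. Y-linked transcripts summed to 5.70, 0 and 203.8 CPM in AlloTem 1 to 3, and to 10.3, 175.1 and 130.9 CPM in SynTem 1 to 3 (CPM, a gene's counts as a share of its library after TMM scaling). SynTem 2 thus held Y-linked transcripts where AlloTem 2, LPS 2 and DC only 2 had none. Xist, transcribed from the inactive X, stood at 754.5, 1188 and 144.7 CPM in AlloTem 1 to 3, and at 798.0, 312.1 and 455.1 CPM in SynTem 1 to 3. SynTem 3 held more Xist than the 137.6 to 145.7 CPM of the other libraries of batch 3, and less Y-linked RNA than their 203.8 to 219.6 CPM. Calls and list medians without SynTem 2 or SynTem 3 are given beside the results they touch.

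In AlloTem, 22 genes were called higher (0.153% of the genes tested) and 2 lower (0.0139%; 0.167% in either direction) than in SynTem, by edgeR's quasi-likelihood test at a Benjamini-Hochberg adjusted p under 0.05. The genes that rose included the chemokine Ccl17, the transcription factors Irf4, Nfil3 and Cited2, the adhesion molecules Cdh1, Cldn1 and Sdc4, and the transport genes Slc30a4, Slc2a1 and Orai1. All 24 genes showed no overlap between the 3 AlloTem and the 3 SynTem libraries and the same direction within each of the 3 batches. Among all genes tested, 7.09% did not overlap with AlloTem higher and 5.94% with AlloTem lower, and 34.4% moved 1 way in all 3 batches. With batch as a term in the same model, 67 genes were called higher (0.465%) and 11 lower (0.0763%), and these 78 included all 24. The number of calls depended on the libraries in the model. With only the 6 AlloTem and SynTem libraries in the model 0 genes were called (989 at an unadjusted p under 0.05; the smallest adjusted p was 0.0786), DESeq2 over the 12 libraries called 318, and without SynTem 2 edgeR called 3 genes (Irf4, Gprc5c and Ier3), or 51 with the batch term. Without SynTem 2, 21 of the 24 calls were thus lost, Ccl17 among them (log2 6.13, edgeR adjusted p = 0.101), and 42 of the 78 with the batch term. Without SynTem 3, 15 of the 24 calls were lost, or 24 of the 78 with the batch term. All 78 genes kept the sign of their fold change in each of these 4 fits. Calls were also lost when other libraries were left out. Without SynTem 1, 8 of the 24 were still called, or 26 of the 78 with the batch term. Without 1 AlloTem library, 19 to 23 of the 24 were still called, or 25 to 45 of the 78 with the batch term.

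**Figure D1:**
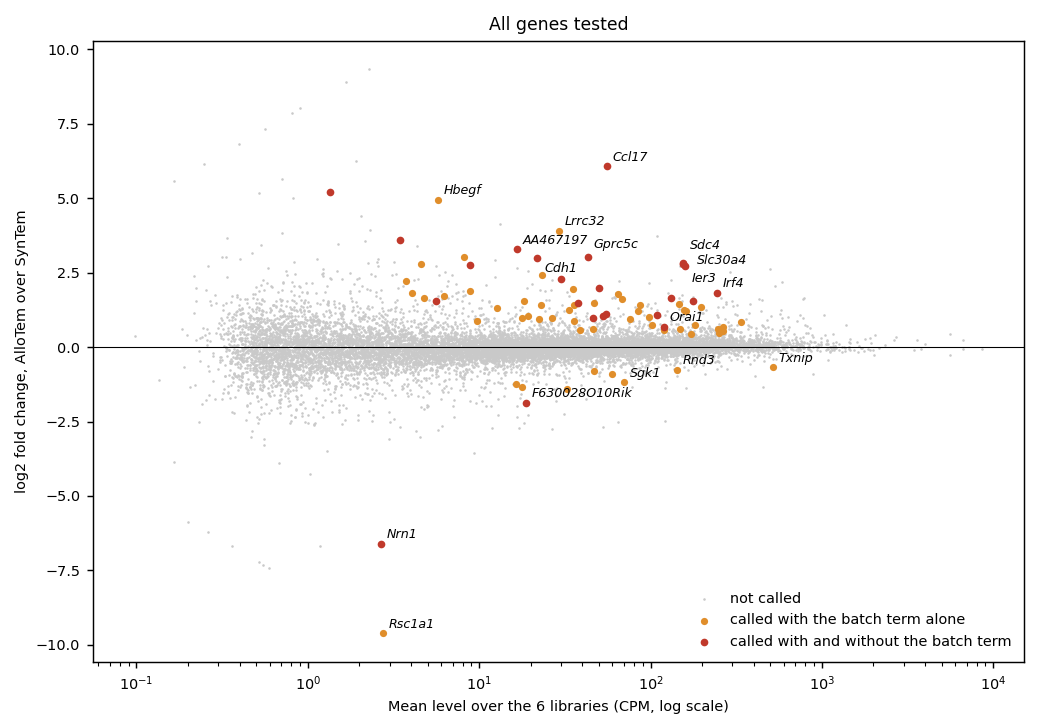
Each point is 1 of 14413 genes tested, placed by its mean level over the 6 libraries (CPM, log scale) and its log2 fold change, AlloTem over SynTem; red points were called with and without the batch term and orange points with the batch term alone. The called genes lie mostly above 0 and above 1 CPM, and uncalled genes of low level spread widest.

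The share of genes with a positive fold change was 47.9% under 1 CPM, 42.8% between 1 and 10 CPM, 60.3% between 100 and 1000 CPM and 48.6% from 1000 CPM up, against 48.5% of all genes tested. Of 1701 genes with a mean under 1 CPM none was called, and of 3665 genes between 1 and 10 CPM 4 were called higher and 1 lower. Between 10 and 100 CPM, 10 of 6560 genes were called higher and 1 lower. Between 100 and 1000 CPM, 8 of 2415 genes were called higher and none lower. In that band 61 genes had at least a 2-fold higher and 5 an at least 2-fold lower level in AlloTem. Over all genes tested these numbers were 528 and 465, and the median log2 fold change was -0.01. Of the 72 genes above 1000 CPM none was called. At an unadjusted p under 0.05, 818 genes (5.68%) were higher and 563 (3.91%) lower.

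The largest changes in each band of level, among genes whose groups did not overlap and with an unadjusted p under 0.05, were mostly not called. Under 1 CPM, Plet1, a membrane protein known from placenta and skin, had 29, 36 and 35 counts in AlloTem and 0, 2 and 0 in SynTem. In the same band 2 beta chain segments of the T cell receptor, Trbv3 and Trbv1, did not pass (edgeR adjusted p = 0.203 and 0.329). Trbv3 had 0, 0.05 and 0.19 CPM in AlloTem and 1.19, 1.39 and 1.25 CPM in SynTem, and Trbv1 had 0.24, 0.05 and 0 CPM in AlloTem and 0.89, 0.95 and 1.19 CPM in SynTem. Between 1 and 10 CPM, Crmp1, a cytosolic phosphoprotein of neurons, had 1, 0 and 0 counts in AlloTem and 8, 61 and 44 in SynTem, lowest in SynTem 1 as Nrn1 was. Between 100 and 1000 CPM, Rgs2, a regulator of G protein signalling, had 74.0, 72.2 and 73.8 CPM in AlloTem and 150.0, 135.4 and 111.0 CPM in SynTem. The AlloTem libraries of Rgs2 were nearly equal and all below SynTem, yet the test was not passed (edgeR adjusted p = 0.123). Zfp36l2, an RNA-binding protein that promotes mRNA decay, had 352.4, 114.4 and 304.9 CPM in AlloTem and 794.4, 616.8 and 545.5 CPM in SynTem (edgeR adjusted p = 0.21). Above 1000 CPM, Pim1, a kinase related to Pim3, had 1535, 1469 and 1181 CPM in AlloTem and 847.6, 437.9 and 716.3 CPM in SynTem (edgeR adjusted p = 0.316). The 5 most abundant genes had log2 fold changes of -0.07 to 0.44 and none was called.

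Promoter sequences are shown for Ccl17, which rose most among the called genes, and for Ier3 and Sdc4, whose promoters held the NF-kB consensus. They are the 250 bases before the gene start in RefSeq (GRCm38.p6), 5′ to 3′ on the gene's strand, with matches in capitals. In Ccl17 (chr8:94810203-94810452, plus strand) the first run of capitals is TTCNNNNGAA, the spacing known for STAT6, 154 bases before the start, and the second is TTCNNNGAA, the spacing of other STAT factors, 99 bases before it. In Ier3 (chr17:35821463-35821712, plus strand) and Sdc4 (chr2:164443189-164443438, minus strand) the capitals mark the NF-kB consensus, 92 and 82 bases before the start.

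Ccl17: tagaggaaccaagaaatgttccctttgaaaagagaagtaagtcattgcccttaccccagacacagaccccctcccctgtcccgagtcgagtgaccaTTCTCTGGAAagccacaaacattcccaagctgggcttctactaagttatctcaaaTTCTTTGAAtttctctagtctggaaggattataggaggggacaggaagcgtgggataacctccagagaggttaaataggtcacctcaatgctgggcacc

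Ier3: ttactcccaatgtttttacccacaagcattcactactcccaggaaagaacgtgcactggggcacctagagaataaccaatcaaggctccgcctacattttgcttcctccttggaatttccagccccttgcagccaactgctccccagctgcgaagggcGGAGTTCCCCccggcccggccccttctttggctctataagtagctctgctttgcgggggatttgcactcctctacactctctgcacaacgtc

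Sdc4: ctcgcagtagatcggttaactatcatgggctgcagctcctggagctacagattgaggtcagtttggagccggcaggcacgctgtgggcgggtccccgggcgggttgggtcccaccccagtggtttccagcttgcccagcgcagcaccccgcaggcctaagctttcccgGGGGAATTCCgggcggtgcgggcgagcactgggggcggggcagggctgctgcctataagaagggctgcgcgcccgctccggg

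RefSeq promoters were matched for 16 of the 24 called genes, 15 of them among the genes called higher, and the 250 bases before and 50 after the start were searched on both strands. The STAT6 spacing was found in 1 of the 15 (Ccl17) and in 6.95% of all 32841 promoters in the table. TTCNNNGAA was found in 3 (Ccl17, Orai1 and Plscr1; 8.3% of all) and the NF-kB consensus in 2 (Ier3 and Sdc4; 4.51% of all). The AP-1 letters TGANTCA were found in 1 (AA467197; 7.81% of all). GGAANNGAAA, the composite of PU.1 and IRF factors, and GAAANNGAAA, the IRF letters, were found in 0 of the 15, and in 2.72% and 3.44% of all. These matches are letters in a window and say nothing of binding.

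Ccl17, a chemokine that attracts T cells bearing CCR4, was close to undetected outside AlloTem. It had 72.7, 190.0 and 66.0 CPM in AlloTem 1 to 3, against 0.52, 1.77 and 2.49 CPM in SynTem 1 to 3, 0.06 to 0.38 CPM in LPS and 0 to 0.34 CPM in DC only. Every AlloTem library lay far above every other library, with AlloTem 2 the highest. The log2 fold change was 6.07 ± 0.72 (SE, edgeR adjusted p = 0.0126). Ccl22, the other ligand of CCR4, had 138.7, 422.8 and 46.5 CPM in AlloTem and 21.4, 12.9 and 11.5 CPM in SynTem. Its groups did not overlap either, but with a log2 fold change of 3.73 ± 0.85 it did not pass the test (edgeR adjusted p = 0.136; 0.0757 with the batch term). Il4ra, the receptor chain shared by IL-4 and IL-13, overlapped between the groups, with 210.8, 266.8 and 134.7 CPM in AlloTem and 156.2, 126.1 and 131.6 CPM in SynTem. Clec10a, a lectin of type 2 conventional DCs, had 47.9, 52.7 and 47.8 CPM in AlloTem and 28.5, 26.5 and 25.02 CPM in SynTem without overlap, and did not pass (edgeR adjusted p = 0.23).

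Among transcription factors, Irf4, which is known for its role in type 2 conventional DCs and activated lymphocytes, had 358.1, 477.1 and 315.7 CPM in AlloTem and 100.7, 121.2 and 102.3 CPM in SynTem. The lowest AlloTem library held more than 2 times the highest SynTem library. Nfil3, a factor needed for type 1 conventional DC development, had 214.3, 224.0 and 161.5 CPM in AlloTem and 51.6, 57.4 and 81.9 CPM in SynTem. Its SynTem libraries also lay above the 23.4 to 26.5 CPM of DC only. Cited2, which binds the coactivators CBP and p300 and restrains HIF-1, averaged 263.1 ± 66.6 CPM in AlloTem and 89.0 ± 17.4 CPM in SynTem (SD, n = 3 each). With the batch term 4 more factors among the named genes were called: Egr3, an immediate early factor (log2 1.85, edgeR adjusted p = 0.0493), Sox4 (1.57, 0.0129), Fosl2, a subunit of AP-1 (1.23, 0.0398), and Xbp1, the factor of the unfolded protein response (0.59, 0.0386). Of these 4, Xbp1 alone was still called without SynTem 2 with the batch term (edgeR adjusted p = 0.0357). Without SynTem 3, with the batch term, Xbp1 and Egr3 were lost (edgeR adjusted p = 0.0802 and 0.0883). Sox4 and Fosl2 were still called in that fit (edgeR adjusted p = 0.0472 and 0.0282). Sox4 shared 54.1% of its 50-base words with other annotated genes, so its value is uncertain. Id1, which blocks E proteins, was called with the batch term too, at 56.9, 31.9 and 29.0 CPM in AlloTem and 7.95, 2.66 and 11.4 CPM in SynTem. DC only libraries held 0.59 to 1.06 CPM of Id1.

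Ier3, an early response gene that restrains cell death, had 287.4, 245.5 and 289.9 CPM in AlloTem and 28.2, 46.9 and 49.4 CPM in SynTem, with little spread among the AlloTem libraries. Pim3, a kinase transcribed in response to cytokines, averaged 75.4 ± 10.4 CPM in AlloTem and 34.8 ± 4.39 CPM in SynTem (SD, n = 3 each; log2 1.11 ± 0.15 SE, edgeR adjusted p = 0.0138). Plscr1, a phospholipid scramblase also known as an interferon-induced gene, had 46.0, 79.0 and 42.2 CPM in AlloTem and 19.8, 18.9 and 21.8 CPM in SynTem (edgeR adjusted p = 0.0484). Bcl2a1a, a prosurvival Bcl2 relative, averaged 43.8 ± 10.3 CPM in AlloTem and 18.7 ± 2.88 CPM in SynTem (SD, n = 3 each), without passing (edgeR adjusted p = 0.102). Its value is uncertain, since 69.0% of its 50-base words occur in other annotated genes, Bcl2a1b and Bcl2a1d among them. Of the 22 tested members of the apoptosis and survival list 0 were called, which says little, since 0.167% of all genes tested were. At an unadjusted p under 0.05, 7 of them were higher and 2 lower, against 5.68% and 3.91% of all genes tested. The list median was a log2 fold change of 0.32.

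Single genes of channels and transporters were among those that rose. Slc30a4, the zinc transporter ZnT4, had 156.5, 397.9 and 251.6 CPM in AlloTem and 32.6, 43.6 and 40.6 CPM in SynTem. It was the only gene called among the 24 tested members of the metal transport and storage list, whose median log2 fold change was 0.07. Slc2a1, the glucose transporter GLUT1, averaged 70.7 ± 6.73 CPM in AlloTem and 34.4 ± 5.67 CPM in SynTem (SD, n = 3 each), and was the only gene called among 30 of glycolysis and hypoxia (list median -0.12). Orai1, the pore subunit of the calcium channel that opens when stores empty, showed the smallest fold of the called genes. It had 152.9, 147.9 and 140.5 CPM in AlloTem and 93.7, 88.8 and 91.8 CPM in SynTem, a log2 fold change of 0.69 ± 0.09 (SE, edgeR adjusted p = 0.0126). Replicates of Orai1 were close, with an SD of 6.22 CPM in AlloTem and 2.49 CPM in SynTem. Snx8, a sorting nexin of endosomes, averaged 61.5 ± 11.4 CPM in AlloTem and 30.9 ± 2.31 CPM in SynTem (SD, n = 3 each).

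Adhesion and surface molecules included 3 called members of the 27 tested in the junction and adhesion list, which as a whole had a median of 0.02. Cdh1, or E-cadherin, had 32.8, 47.9 and 35.1 CPM in AlloTem and 5.65, 3.80 and 5.10 CPM in SynTem. Cldn1, a tight junction claudin, averaged 50.1 ± 26.8 CPM in AlloTem and 10.4 ± 1.00 CPM in SynTem (SD, n = 3 each). Sdc4, a heparan sulphate proteoglycan, had 257.9, 407.9 and 144.6 CPM in AlloTem and 41.4, 28.0 and 45.2 CPM in SynTem, and 99.5 to 105.9 CPM in LPS. Gprc5c, an orphan G protein-coupled receptor, had 54.1, 80.5 and 97.2 CPM in AlloTem and 6.32, 12.2 and 10.1 CPM in SynTem. All 3 SynTem libraries of Gprc5c lay near the 8.82 to 9.76 CPM of DC only. Rnf24, a membrane RING finger protein, had 47.9, 111.4 and 78.3 CPM in AlloTem and 15.6, 22.7 and 22.4 CPM in SynTem, with 16.3% of its words shared with other genes.

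**Figure D2:**
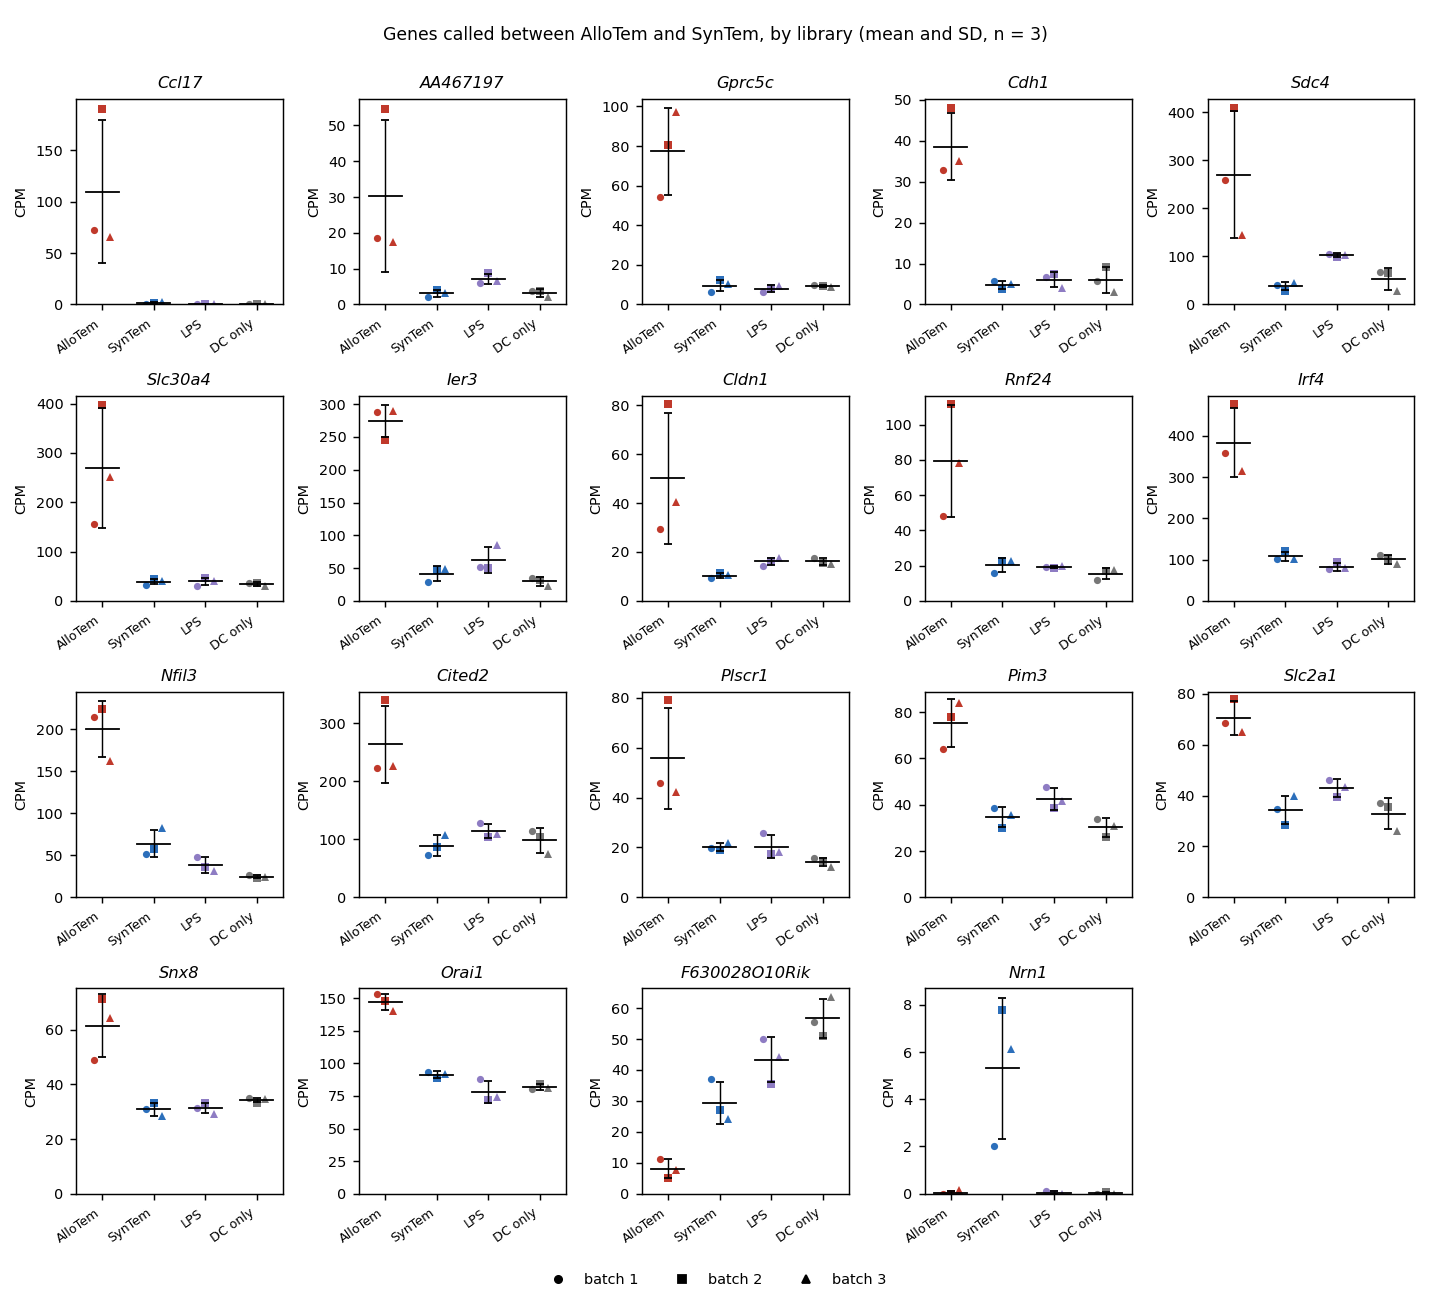
CPM per library of 19 of the 24 called genes in AlloTem, SynTem, LPS and DC only; points are libraries, marked by batch, and bars the mean and SD (n = 3). The AlloTem points stand apart from SynTem in every panel, while SynTem and DC only overlap in some panels and stand apart in others, those of Nfil3, F630028O10Rik and Nrn1 among them.

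Host transcripts of 2 microRNAs were among the called genes, which was seen after the values were known. F630028O10Rik, a noncoding transcript on chromosome X that contains the Mir223 hairpin, had 11.3, 5.16 and 7.60 CPM in AlloTem and 37.0, 27.1 and 24.1 CPM in SynTem. All AlloTem libraries lay below all SynTem libraries, and DC only was higher still at 51.0 to 63.4 CPM (a log2 fold change of -1.87 ± 0.27 SE; edgeR adjusted p = 0.0198). AA467197, which contains the Mir147 hairpin, had 18.7, 54.7 and 17.5 CPM in AlloTem and 2.16, 4.05 and 3.08 CPM in SynTem (edgeR adjusted p = 0.0226). A hairpin lay within 8.33% of the 24 called genes and 3.33% of all genes tested. The mature sequences, from RefSeq (GRCm38.p6), are shown with the seed, bases 2 to 8, in capitals, because the 2 hosts moved in opposite directions and their seeds differ. miR-223, a myeloid microRNA that restrains inflammatory signalling, lies at chrX:96242884-96242905 for its 3p arm and chrX:96242842-96242864 for its 5p arm, plus strand. The listed arm of miR-147 lies at chr2:122640814-122640837, plus strand. Host counts do not measure mature microRNA.

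mmu-miR-223-3p: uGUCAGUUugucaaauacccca

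mmu-miR-223-5p: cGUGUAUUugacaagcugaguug

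mmu-miR-147-5p: uGGAAACAuuucugcacaaacuag

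Among the genes called lower was also Nrn1, neuritin, a membrane-anchored protein first described in neurons. It had 0, 0 and 3 counts in AlloTem 1 to 3 against 27, 123 and 103 counts in SynTem 1 to 3, and was at or near 0 in LPS and DC only. SynTem over AlloTem was a ratio of 114.1 with a 95% counting interval of 38.6 to 557.1. Nrn1 was lowest in the SynTem library with the fewest T cell transcripts (SynTem 1), and the part of those transcripts in the result was not tested. Nrn1 was called in 1 of the 6 fits that left out 1 library, and 20.2% of its 50-base words are shared with Fars2, on the other strand, so its value is uncertain. Of the remaining called genes, 4 carry predicted names and share much of their sequence: Gm13841 (100% of its 50-base words found in other genes), Gm13394 (94.7%, Gapdh among them), Gm8221 (45.1%, Apol genes) and AC167363.2 (22.6%, Cdkn1a). Their rises are uncertain, since reads of the related genes could be counted for them.

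With the batch term, 45 further genes were called higher and 9 lower. Hbegf, heparin-binding EGF-like growth factor, had 8.17, 21.1 and 4.25 CPM in AlloTem and 0, 0.32 and 0.71 CPM in SynTem. Lrrc32, or GARP, which holds latent TGF-beta at the cell surface, had 28.0, 116.9 and 19.2 CPM in AlloTem and 2.45, 4.37 and 4.03 CPM in SynTem. Dll4, a Notch ligand, had 9.83, 27.4 and 6.18 CPM in AlloTem and 0.89, 2.79 and 1.60 CPM in SynTem. In each of the 3 genes AlloTem 2 stood well above AlloTem 1 and 3, and without the batch term none passed (edgeR adjusted p = 0.0693, 0.106 and 0.113). Without SynTem 2, with the batch term, Dll4 was still called (edgeR adjusted p = 0.0289), and Hbegf and Lrrc32 were not (0.169 and 0.107). Without SynTem 3, with the batch term, Dll4, Hbegf and Lrrc32 were all still called (edgeR adjusted p = 0.0104, 0.0149 and 0.0152). Cd209e, a lectin related to DC-SIGN, averaged 7.95 ± 3.36 CPM in AlloTem and 1.15 ± 0.49 CPM in SynTem (SD, n = 3 each). Muc1, a membrane mucin, averaged 13.8 ± 5.80 CPM in AlloTem and 3.77 ± 0.47 CPM in SynTem (SD, n = 3 each). Hs3st3b1, a sulphotransferase acting on heparan sulphate, averaged 27.2 ± 3.20 CPM in AlloTem and 9.32 ± 2.56 CPM in SynTem (SD, n = 3 each). Azin2, an antizyme inhibitor, Cdk5r1, an activator of Cdk5, Tmem200b and Plk3, a polo-like kinase, rose with log2 fold changes of 1.80, 1.60, 2.26 and 1.47 in that fit. Cass4, a Cas family scaffold, and Slc14a1, a urea transporter, rose by 1.65 and 1.42. The receptors Gpr183, Ptger2 and S1pr3, for oxysterols, prostaglandin E2 and sphingosine 1-phosphate, and the kynurenine enzyme Kmo were also called (log2 1.39, 1.00, 1.31 and 1.30), and these 4 were picked out after their values were seen. Of the genes in this paragraph, Dll4, Azin2, Plk3 and Kmo were still called without SynTem 2 with the batch term. Those still called without SynTem 3 with the batch term were Hbegf, Lrrc32, Dll4, Cdk5r1, Plk3, Cass4, Ptger2 and Kmo, while Azin2 was lost (edgeR adjusted p = 0.0883).

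Among the genes lower with the batch term, Txnip, which restrains glucose uptake, had 446.0, 321.6 and 436.9 CPM in AlloTem and 693.7, 638.3 and 594.5 CPM in SynTem (log2 -0.69 with the batch term; edgeR adjusted p = 0.041). Every AlloTem library lay below every SynTem library and below the 615.3 to 666.0 CPM of DC only, and 15.7% of its words are shared with the antisense transcript Gm15441, which was also called lower. Sgk1, a kinase of the AGC family, averaged 42.7 ± 6.52 CPM in AlloTem and 97.4 ± 34.9 CPM in SynTem (SD, n = 3 each). Rnd3, an atypical small GTPase, averaged 106.2 ± 16.8 CPM in AlloTem and 180.5 ± 19.9 CPM in SynTem (SD, n = 3 each). Lpar6, a lysophosphatidic acid receptor, had 22.1, 10.7 and 21.1 CPM in AlloTem and 50.9, 49.0 and 42.8 CPM in SynTem. Tnfsf8, or CD30 ligand, had 7.46, 10.1 and 11.5 CPM in AlloTem and 15.5, 29.4 and 24.3 CPM in SynTem. Rsc1a1 had 0 counts in all 3 AlloTem libraries and in SynTem 2, and 124 in each of SynTem 1 and 3, but all of its words lie within Ddi2, so its call is uncertain. Without SynTem 2, with the batch term, Sgk1, Rnd3, Tnfsf8 and Rsc1a1 were still called, while Txnip and Lpar6 were not (edgeR adjusted p = 0.0995 and 0.121). Without SynTem 3, with the batch term, all of these were still called, Txnip and Lpar6 among them (edgeR adjusted p = 0.0483 and 0.0264).

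The gene lists, 24 of pathways, put these genes in context, and only 10 of the 24 called genes belonged to any list. Members were chosen with earlier results of these data known, so called members lend a pathway no separate support. In 22 of the 24 pathway lists the median log2 fold change was above 0, against 20 without SynTem 2 and 22 without SynTem 3. Lists share members, Ccl17 and Cdh1 among them, so they are not 24 separate observations. Of all genes tested 48.5% were positive, or 60.3% of those between 100 and 1000 CPM. By edgeR 0.153% of all genes were called higher, and 5.68% were higher at an unadjusted p under 0.05. The median was 1.05 over 16 tested members of the IL-4 and STAT6 response, with 3 called higher (Ccl17, Cdh1 and Irf4) and 13 positive. It was 1.06 over 17 tested members of the GM-CSF and STAT5 response, with Nfil3 and Pim3 called and 14 positive. Osm, a cytokine of the IL-6 family in that list, had 54.1, 45.6 and 32.5 CPM in AlloTem and 9.37, 4.75 and 13.6 CPM in SynTem without passing (edgeR adjusted p = 0.0858). With the batch term Osm was called without SynTem 3 (edgeR adjusted p = 0.0116) and not without SynTem 2 (0.165). The 31 immediate early genes had a median of 0.83 with 29 positive, and Ier3 was called, or Ier3, Egr3 and Fosl2 with the batch term. Of 26 maturation and costimulation genes 25 were positive with a median of 1.01, or 0.82 without SynTem 2 and 0.88 without SynTem 3. Within batches 1 to 3 their median log2 ratios were 0.58, 1.79 and 0.37. By edgeR 0 of the 26 were called with or without the batch term. With 0.153% and 0.465% of all genes called higher in these 2 fits, 0 of 26 says little about this list. At an unadjusted p under 0.05, 13 were higher and 0 lower, against 5.68% and 3.91% of all genes tested. In that list Cd80, a ligand of CD28, had 81.7, 178.8 and 54.7 CPM in AlloTem and 40.2, 32.9 and 28.9 CPM in SynTem (edgeR adjusted p = 0.145). Cd40, the receptor for CD40 ligand, had 155.5, 395.5 and 114.8 CPM in AlloTem and 71.6, 39.6 and 102.3 CPM in SynTem, with AlloTem 3 close to SynTem 3 (edgeR adjusted p = 0.316). Cd86, the other ligand of CD28, overlapped, with 137.4, 249.7 and 105.3 CPM in AlloTem and 142.6, 100.5 and 89.3 CPM in SynTem.

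**Figure D3:**
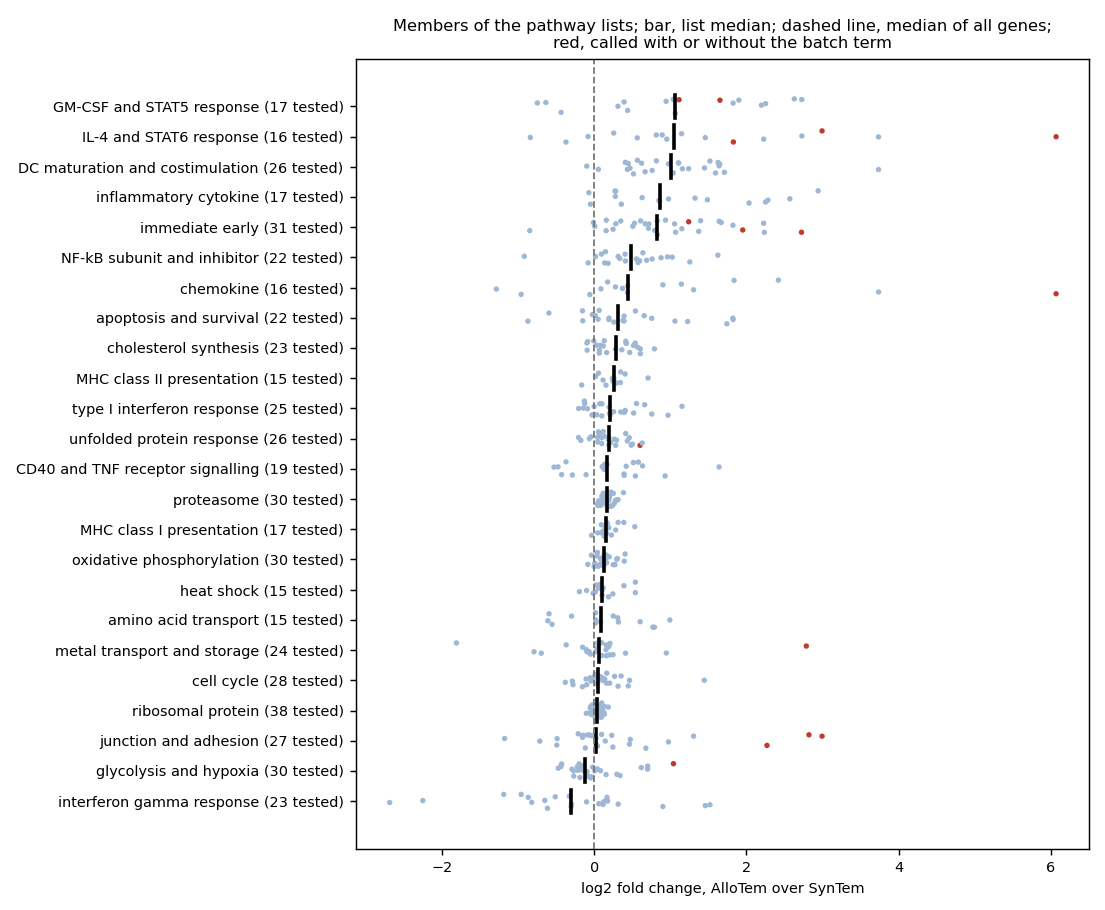
Log2 fold change, AlloTem over SynTem, of each tested member of 24 pathway lists; the black bar is the list median, the dashed line the median of all genes tested (-0.01), and red points were called with or without the batch term. The STAT5, STAT6 and maturation lists have medians above 1, and the interferon gamma list has the lowest, -0.30. The lists were chosen with earlier results of these data known.

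Inflammatory cytokines had a median of 0.86 over 17 tested genes, with 0 called by edgeR with or without the batch term. At an unadjusted p under 0.05, 6 were higher, against 5.68% of all genes tested. Without SynTem 2 the median was 0.47, or 0.59 with the batch term, and without SynTem 3 it was 0.86, or 1.33 with the batch term. Il6 had 36.6, 40.3 and 22.6 CPM in AlloTem and 4.61, 2.79 and 9.31 CPM in SynTem, with no overlap (edgeR adjusted p = 0.0858). With the batch term Il6 was called without SynTem 3 (edgeR adjusted p = 0.00108) and not without SynTem 2 (0.212). Il1b had 1044, 1060.0 and 452.7 CPM in AlloTem and 439.7, 87.1 and 97.6 CPM in SynTem, where SynTem 1 came close to AlloTem 3 (edgeR adjusted p = 0.331). NF-kB subunits and inhibitors had a median of 0.48 over 22 genes, with Tnfaip3, the deubiquitinase A20, at 1343, 1446 and 705.6 CPM in AlloTem and 594.6, 209.0 and 330.5 CPM in SynTem. None of the 22 passed, where 0.167% of all genes tested did. Housekeeping lists stayed near 0: the median was 0.04 for 38 ribosomal protein genes, 0.12 for 30 of oxidative phosphorylation and 0.05 for 28 of the cell cycle. All 30 proteasome genes were positive, but their median was 0.16 and 0 were called.

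Some lists held within every batch and others turned with the batch. Median log2 ratios in batches 1 to 3 were 0.68, 1.79 and 0.87 for the IL-4 and STAT6 response and 0.86, 1.75 and 0.78 for the GM-CSF and STAT5 response. In all, 11 of the 24 pathway lists had a positive median in each batch. The type I interferon response had -0.43, 2.47 and -2.25 and the interferon gamma response -0.20, 0.84 and -1.66, so that both pointed in opposite directions in batches 2 and 3. The type I interferon median over all libraries, 0.20, was -0.17 without SynTem 2, and the interferon gamma median, -0.30, was 0.16 without SynTem 3. The chemokine median, 0.44, was 0.26 without SynTem 2 and 1.24 without SynTem 3. Cxcl10, a ligand of CXCR3, had 161.7, 595.2 and 74.8 CPM in AlloTem and 167.9, 28.4 and 1422 CPM in SynTem. Cxcl9, another ligand of CXCR3, had 59.2, 553.3 and 48.4 CPM in AlloTem and 47.9, 19.4 and 517.3 CPM in SynTem. The highest value of both chemokines stood in AlloTem 2 or SynTem 3, and no direction can be given for either.

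**Figure D4:**
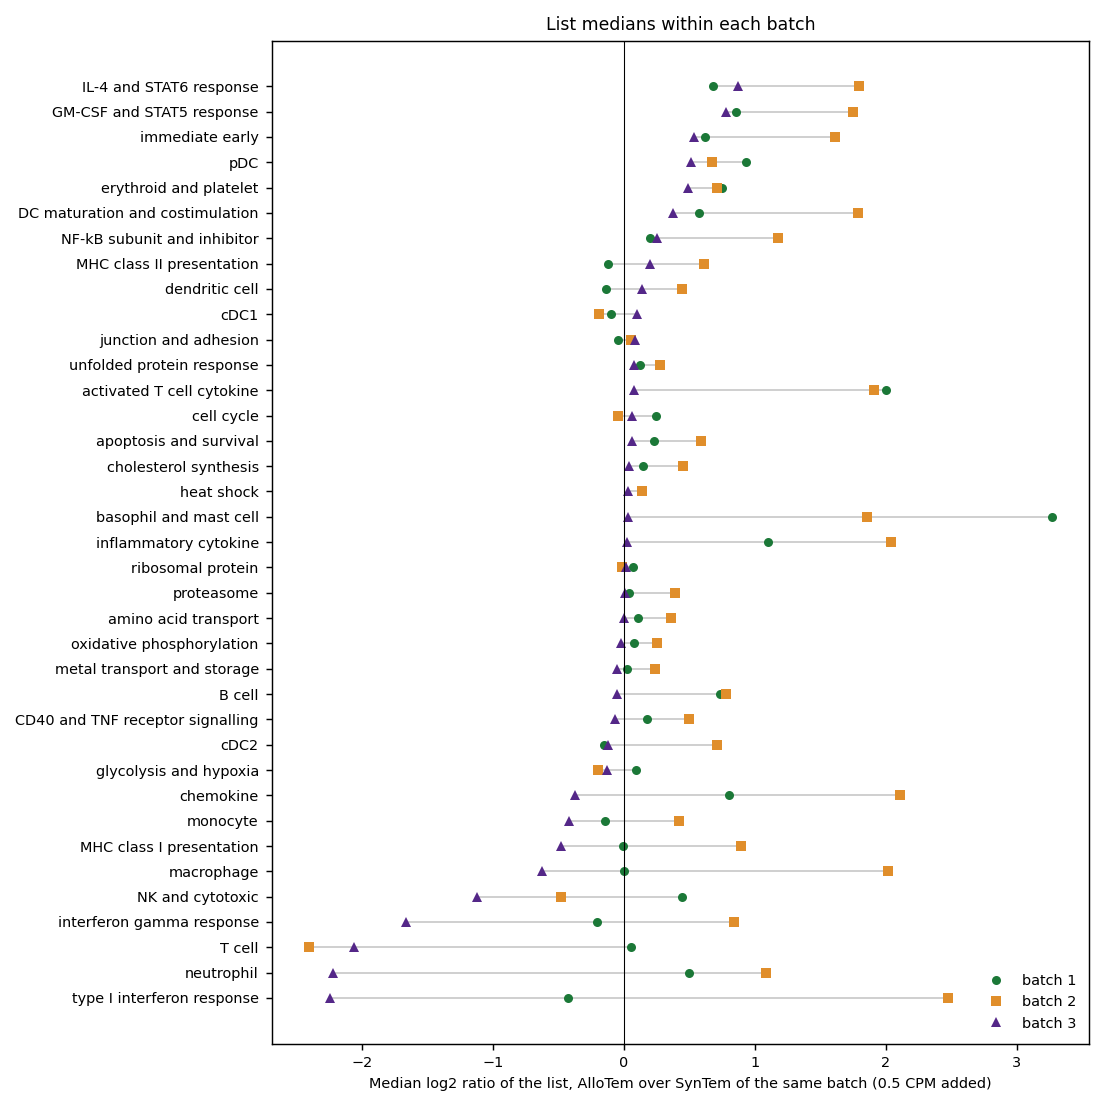
Median log2 ratio, AlloTem over the SynTem library of the same batch, of 24 pathway and 13 marker lists, in order of batch 3. The STAT6 and STAT5 lists, chosen like the others with earlier results known, lie above 0 in all 3 batches. The type I interferon list runs between -2.25 in batch 3 and 2.47 in batch 2.

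Transcripts of other cells differed between the cultures, and in bulk RNA fewer cells of a type cannot be told apart from less RNA per cell. The 23 T cell markers, among them the CD3 chains, summed to 382.4, 239.9 and 214.7 CPM in AlloTem 1 to 3, 376.2, 799.1 and 650.2 CPM in SynTem 1 to 3 and 115.6 to 149.3 CPM in DC only. Of these, 22 had a negative log2 fold change (median -1.36; 0.06, -2.41 and -2.06 within batches 1 to 3), 0 were called by edgeR with or without the batch term and 12 were lower at an unadjusted p under 0.05. Over all genes tested 0.0139% were called lower, or 0.0763% with the batch term, so the 0 says little. At an unadjusted p under 0.05, 3.91% of all genes tested were lower. Cd3e had 6.55, 2.93 and 3.92 CPM in AlloTem and 10.7, 47.9 and 30.4 CPM in SynTem. The T cell sums overlapped between the groups, since AlloTem 1 lay as high as SynTem 1. Of 9 tested members of the 15 genes of activated T cells, 7 were positive, with a median of 1.51 (2.00, 1.91 and 0.08 within batches 1 to 3). The member called in either fit was Tnfsf8, given above, which was lower with the batch term. The 15 genes summed to 60.5, 58.2 and 24.7 CPM in AlloTem and 33.8, 43.5 and 40.3 CPM in SynTem, so AlloTem 3 lay below every SynTem library. Il21, a cytokine of helper T cells, had 36, 37 and 14 counts in AlloTem and 0, 0 and 1 in SynTem. Cd40lg, CD40 ligand, had 3.75, 4.27 and 2.03 CPM in AlloTem and 0.82, 0.70 and 0.89 CPM in SynTem (edgeR adjusted p = 0.167). Csf2, which encodes GM-CSF, had 3.94, 8.09 and 1.46 CPM in AlloTem and 0, 0.63 and 1.36 CPM in SynTem. Il17a and Il22 were at 0 in all 12 libraries, and Ifng overlapped between the groups. Il2 was too low for the test. The T cell list as a whole was lower in AlloTem than in SynTem in batches 2 and 3 and level in batch 1. Within it, Cd3d, Cd3e and Cd27 were lower in AlloTem in batch 1 too (log2 ratios of -0.54, -0.67 and -0.37), while the list median there was 0.06. The part of T cell transcripts in the results above was not tested.

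Basophil and mast cell markers were positive in 8 of 8 tested genes (median 2.11; 3.27, 1.86 and 0.03 within batches 1 to 3), with 0 called; the median was 1.63 without SynTem 2 and 3.46 without SynTem 3. They summed to 424.3, 401.4 and 327.4 CPM in AlloTem and 238.8, 294.8 and 300.7 CPM in SynTem. In DC only they summed to 258.1 to 315.3 CPM, and in LPS to 213.4 to 470.0 CPM, where LPS 2 lay above every AlloTem library. Cpa3, a mast cell and basophil protease, had 47.3, 4.57 and 23.4 CPM in AlloTem and 0.37, 0.89 and 2.96 CPM in SynTem. Fcer1a, the alpha chain of the IgE receptor, had 177, 13 and 48 counts in AlloTem and 0, 0 and 2 in SynTem. The AlloTem values of both genes were lowest in AlloTem 2, where Ccl17 and Irf4 were highest. Neutrophil markers summed to 294.4, 104.1 and 111.9 CPM in AlloTem and 230.8, 69.6 and 984.6 CPM in SynTem, the last value being SynTem 3. Erythroid and platelet markers summed to 69.4 to 96.1 CPM in AlloTem and 42.9 to 43.9 CPM in SynTem, with 55.0 to 111.0 CPM in LPS and 25.4 to 57.85 CPM in DC only. Plasmacytoid DC markers summed to 670.8 to 1194 CPM in AlloTem and 544.6 to 655.7 CPM in SynTem. In LPS they summed to 598.1 to 1063 CPM and in DC only to 550.3 to 1201 CPM. The plasmacytoid list holds Clec10a, described above as a lectin of type 2 conventional DCs, and Irf7, which is also in the type I interferon list. None of the markers in these 3 lists was called. With 0.167% of all genes tested called, counts of 0 say little about these lists or about the basophil and mast cell list. Whether these cells had a part in the calls was not tested.

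**Figure D5:**
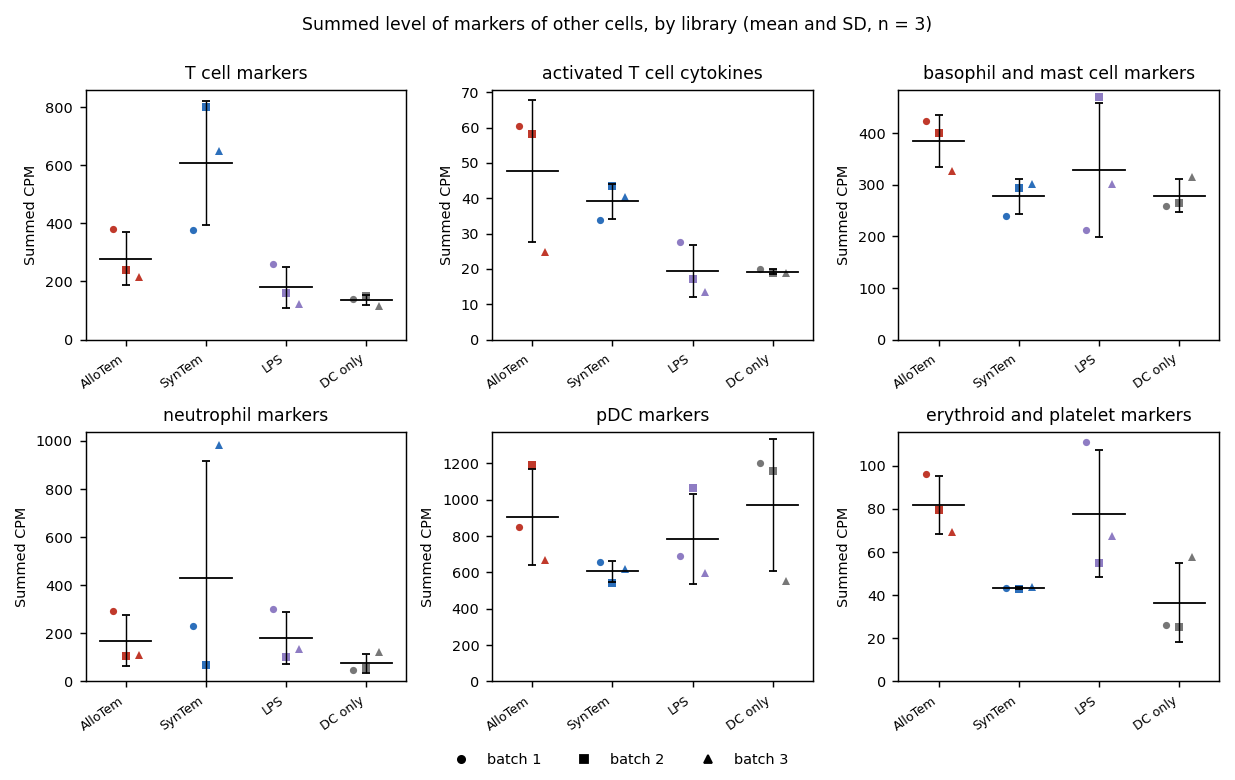
Summed CPM of 6 marker lists per library in AlloTem, SynTem, LPS and DC only; points are libraries, marked by batch, and bars the mean and SD (n = 3). T cell markers are highest in SynTem 2 and 3, and neutrophil markers reach 984.6 CPM in SynTem 3.

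Of the 22 genes called higher, 10 had a SynTem mean within the range of the 3 DC only libraries, a share that was not counted over all genes. When SynTem was compared with DC only by edgeR, 1 of the 22 was called. The 22 were picked for a difference between AlloTem and SynTem, so neither count is a separate test. Irf4, for example, averaged 108.0 ± 11.4 CPM in SynTem and 100.4 ± 10.9 CPM in DC only (SD, n = 3 each). LPS for 3 h gave levels near DC only for some of these genes, among them Slc30a4 at 39.4 ± 7.89 CPM in LPS and 33.8 ± 3.77 CPM in DC only (SD, n = 3 each). Sdc4 and Ier3 averaged 103.0 ± 3.26 and 62.8 ± 19.8 CPM in LPS and 53.4 ± 22.3 and 29.7 ± 6.51 CPM in DC only (SD, n = 3 each).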

How the data were processed

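Per the labels' protocols, DNase-treated RNA was made into TruSeq libraries and read from 1 end on a NextSeq. What the authors deposited are unnormalized whole-number counts of 57009 Ensembl genes, beside a table of batch numbers 1 to 3. Reads were placed on mm10, per the submitters' processing notes. Which aligner, counter, strand setting and annotation were used is not given in the sources used here. Counts of a gene and of its antisense partner therefore cannot be told apart. For 52028 identifiers GENCODE M21, on GRCm38, gave the symbol and position; the 4981 others held 0.763% of counts.

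In edgeR 4.0.16 under R 4.3.3, low genes were dropped by filterByExpr (at least 10 counts, 15 in total), libraries were scaled by TMM, and all 12 entered a robust quasi-likelihood model of the 4 groups, once without and once with batch. Adjusted p-values are Benjamini-Hochberg values over every gene tested. Each SE was derived from the fold change and its F statistic, and 0.5 CPM was added before ratios within a batch were taken. Counting intervals (95%, exact) cover counting error only. Batch pairs libraries here on the word of the deposited table, where it equals the replicate number in all 12. Deviations from group means correlated with r = 0.42, -0.10 and 0.10 between same-numbered AlloTem and SynTem libraries, and AlloTem 3 correlated best with SynTem 2 (0.48).

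Named genes were those called, the largest changes called with the batch term alone (15 rises, 10 falls), up to 3 per list, the largest changes per band of level, the 5 most abundant, and 15 picked by name; 107 were tested, of which 1 called gene is not reported here. The members and the 38 lists (700 genes) were chosen with earlier results of these data known. Uncertain genes were found by comparing 50-base words of annotated transcripts. Alternatives were other scalings, DESeq2 1.42.0, limma voom (3.58.1), other filters, a fold threshold of 1.2, other sets of libraries, a covariate for Y-linked transcripts and thinning to equal depth. The scripts were tested on simulated counts.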

Additional observations from a re-analysis of the deposited data

How the results depend on the processing

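The batch numbers come from the deposited table, so the replicate block is given beside the first fit: 78 genes (67 higher, 11 lower) against 24 (22 and 2). All 24 kept their direction under every alternative in which they were tested. Calls were 318 with DESeq2 (216 higher, 102 lower) and 41 with no filter (35 and 6). At a mean of at least 5 CPM and with a fold threshold, 1 gene was called lower. With only the 6 libraries compared, edgeR called 0 genes with or without the block (0 higher, 0 lower), although 1140 and 989 had an unadjusted p under 0.05. Leaving out both DC only 2 and SynTem 2, calls were 2 (2 higher, 0 lower), or 37 with the block (26 and 11). With Y-linked transcripts as a covariate they were 39 (33 and 6). Leaving out 1 library gave 3 to 47 calls, 3 to 44 higher and 0 to 3 lower: 3 without SynTem 2, 11 without SynTem 1, 11 without SynTem 3 and 47 without AlloTem 3. With the block this range was 28 to 98 (28 without AlloTem 2, 43 without AlloTem 1, 42 without SynTem 1, 51 without SynTem 2), and DESeq2 with batch called 547. Irf4, Gprc5c and Ier3 passed in all 6 fits that left out 1 library. The causes of these differences were not tested. Over 73 named genes, 1183 values under an alternative kept direction and call, 152 lost the call, 86 gained it and 16 changed sign. Sign changes of the log2 fold change, none of a called gene, were as follows. Cxcl10 gave 0.028 with limma voom and -2.20 to 1.51 when 1 library was left out. Ifng gave -1.59 with limma voom, -0.82 with the block, -0.58 with the block in 6 libraries, -0.88 with the block without DC only 2 and SynTem 2, and -1.59 with the Y covariate, and -1.42 to 0.93 when 1 library was left out. Cxcl9 gave -0.55 with the block, -0.36 without DC only 2 and SynTem 2, -2.05 with the block too, -1.27 with the Y covariate, and -1.87 to 2.72 when 1 library was left out.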

Other observations

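Several called genes were neighbours in the genome, a pattern seen after the values were known. Of the 78 genes called with the batch term, 12 formed 6 pairs within 100 kb of each other, and both members moved the same way in all 6. A called gene lay within 100 kb of 15.4% of these 78 genes and of 1.64% of the other tested genes. Over all 32238 pairs of tested genes within 100 kb, 52.7% moved the same way, and 67 of the 78 called genes were higher, which alone makes most pairs of them agree. AA467197 and the zinc transporter gene Slc30a4 lie 40.0 kb apart on chromosome 2 and rose by log2 fold changes of 3.15 and 2.73. Nup62, of the nuclear pore, and Tbc1d17, a Rab GTPase-activating protein, lie 3.8 kb apart on chromosome 7 and rose by 0.74 and 1.39. On chromosome 11, Gm5431 and 9930111J21Rik1 lie 43.9 kb apart and fell, with log2 fold changes of -1.40 and -0.89. A further 2 pairs overlap on opposite strands: Fh1 with Kmo (0.58 and 1.30) and Gm15441 with Txnip (-0.80 and -0.69), so each of their members could hold reads of the other.

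Some transcripts were counted in every library of 1 group and in none of the other. There were 106 such identifiers in AlloTem, of which 32 had 10 or more counts and 3 were tested, and 72 in SynTem, of which 22 had 10 or more counts and 1 was tested. The AlloTem libraries were deeper, and with counts thinned at random to 13903574 per library the order turned, with 63 such identifiers in AlloTem and 95 in SynTem.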
